A study of Mus musculus with 12 samples.

Results

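The read peaks of Stat3 in peroxide-treated -/-WT MEFs were compared with those in the same cells under basal conditions. Every summit of the deposited basal list (230) and of the deposited peroxide list (450) was used, out of 2136 summits in the 5 lists of the series. A summit of one list was paired with the nearest summit of the other where they lay within 200 bp, which gave 107 shared loci, 343 loci in the peroxide list only (gained) and 123 loci in the basal list only (lost), or 573 loci in all. Gained and lost describe presence in a list. The study reports that the peaks it called in peroxide-treated -/-WT cells alone could also be seen in unstimulated controls. It reports the same for peroxide-treated MEFs with the mutant Stat3-C3S. Those peaks came from the study's own calling and thresholds and are not the same set as the gained loci. Of the peroxide summits 23.8% were shared (exact 95% interval 19.9 to 28.0%), and of the basal summits 46.5% (39.9 to 53.2%). The loci of all 3 classes were mostly copies of 1 interspersed repeat with the structure of a LINE-1 element. Outside repeats, the *Stat3* promoter was in both lists, while sites at *Junb* and *Osmr* were in the basal list only.

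Stat3 is a latent transcription factor. Cytokines of the interleukin-6 family, such as LIF, lead to its phosphorylation on tyrosine by Jak kinases, after which Stat3 dimers bind a palindromic sequence, the sis-inducible element (SIE), in the promoters of their targets. Many of these targets act in the same pathway, among them *Stat3* itself, the feedback inhibitor *Socs3* and receptor subunits. Peroxide oxidises reactive cysteines in signalling proteins, and Stat3 holds such cysteines in its DNA-binding domain. LINE-1 elements are retrotransposons that fill a large part of the mouse genome. A complete copy encodes an RNA-binding protein (ORF1) followed by a protein with endonuclease and reverse transcriptase activity (ORF2), and most copies lack their 5′ part.

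The MEFs derive from Stat3 fl/fl embryos. They were immortalised, endogenous Stat3 was removed with Cre recombinase, and wild-type Stat3 was put back with a retroviral vector that also encodes GFP, by which a polyclonal population was sorted (-/-WT). In both conditions Stat3 was thus expressed from the vector and not from its own gene. Cells were starved overnight in 0.5% serum in both conditions, and peroxide was given for 1 h, at 100 mM by the sample labels and at 100 µM by the study's methods. Stat3 was precipitated with the antibody 124H6 from 2 replicates of each condition, and each deposited list pools both. No value below has a replicate error, intervals are exact Clopper-Pearson 95% intervals that cover counting error only, and a test compares 2 sets of loci and not the conditions. The read depth behind a summit is unknown. Scores were used only to rank the summits of one list, and ranks are also given as percentiles, with 100 for the highest score of that list.

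The repeat can be read in 6 loci that hold the same stretch of it, inside ORF2 and towards its 3′ end. The first is the highest-ranked locus of both lists. The others were taken by their position in the element, as the nearest to it among shared, gained and lost loci. Sequences are from GRCm38.p6, of which mm10 is the UCSC name, and are printed in the direction of ORF2, with capitals at the bases that differ from the first.
Gm28905 (shared, chr10:9987329-9987429, minus strand): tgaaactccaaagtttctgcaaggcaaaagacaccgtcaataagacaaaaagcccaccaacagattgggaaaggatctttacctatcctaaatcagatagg
Rab28 (shared, chr5:41592460-41592560, plus strand): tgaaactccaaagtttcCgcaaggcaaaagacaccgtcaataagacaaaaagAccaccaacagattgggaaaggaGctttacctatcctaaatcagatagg
Gm44691 (gained, chr7:68999324-68999424, minus strand): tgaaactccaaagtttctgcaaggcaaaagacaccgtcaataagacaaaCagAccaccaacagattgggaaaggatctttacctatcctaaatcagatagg
Cyp4a28-ps (gained, chr4:115148356-115148456, plus strand): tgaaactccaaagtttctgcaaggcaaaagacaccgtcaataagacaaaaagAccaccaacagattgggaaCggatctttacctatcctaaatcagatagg
Gm29192 (lost, chr1:122767504-122767604, minus strand): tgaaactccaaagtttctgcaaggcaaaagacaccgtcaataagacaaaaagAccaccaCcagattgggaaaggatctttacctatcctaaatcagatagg
Gm20125 (lost, chr10:16945840-16945940, plus strand): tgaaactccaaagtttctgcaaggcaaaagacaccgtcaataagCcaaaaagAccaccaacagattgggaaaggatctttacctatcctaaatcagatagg
Each stretch is 101 bases long and lies within 13 bp of its own summit. The 5 others differed from the first by 2 or 3 bases. The gained and lost copies shown here thus differed from the leading shared locus no more than the other shared copy did, which had 3 differences.

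Outside repeats there were 7 loci, taken as those with under 50% repeat-masked bases within 80 bp of the summit. In 3 of them the window held a match to the SIE, and these are shown with the site in capitals, on the plus strand. The SIE was searched as TTCCNGGAA on both strands with up to 1 mismatch.
Stat3 (shared, chr11:100939706-100939866): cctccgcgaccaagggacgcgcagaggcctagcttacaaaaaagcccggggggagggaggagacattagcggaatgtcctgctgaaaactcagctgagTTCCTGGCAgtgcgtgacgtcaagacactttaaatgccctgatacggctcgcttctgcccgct
Junb (lost, chr8:84976496-84976656): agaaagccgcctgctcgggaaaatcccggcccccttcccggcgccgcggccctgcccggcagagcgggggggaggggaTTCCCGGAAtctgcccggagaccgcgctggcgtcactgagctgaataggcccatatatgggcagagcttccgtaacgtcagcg
Osmr (lost, chr15:6874330-6874358, the site and its flanks only): ggggcgggagTTACGGGAAagcgccgggg
The site at *Junb* matched without a mismatch and was centred 2 bp from the summit. Those at *Stat3* and *Osmr* each had 1 mismatch and were centred 22 and 15 bp from the summit. Of 161-bp windows centred on the start sites of protein-coding genes, 0.618% held an exact match and 9.50% a match with up to 1 mismatch.

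The *Stat3* promoter was the only non-repeat locus in both lists. Its summit lay 246 bp upstream of the start site of *Stat3* in the peroxide list, at 100939786 on chromosome 11, and 28 bp from there in the basal list, at 100939758. It ranked 48 of 230 in the basal list (score 16.4, percentile 79.6) and 203 of 450 in the peroxide list (score 12.3, percentile 55.1). The locus therefore stood above the median of both lists but lower among the peroxide summits. In the list of LIF-treated -/-WT MEFs a summit 5 bp away had the highest score of 1088.

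Of the 3 lost loci outside repeats, 2 were at genes of the Stat3 pathway. The summit at *Junb*, which encodes a subunit of the AP-1 transcription factor, ranked 75 of 230 in the basal list (score 13.0). It counted as a promoter because it lay 34 bp upstream of the start of a short *Junb* transcript, but it was 334 bp beyond the 3′ end of the protein-coding transcript, whose start was 2142 bp away. The summit at *Osmr*, the receptor subunit for oncostatin M, ranked 191 of 230 (score 6.16) and lay 610 bp into the protein-coding transcript. In the LIF list, summits 23 bp from that at *Junb* and 21 bp from that at *Osmr* ranked 5 and 2 of 1088. The nearest peroxide summits were 369 kb from *Junb* and 3064 kb from *Osmr*. The third lost locus was in an intron of *Gpam*, which encodes an acyltransferase of glycerolipid synthesis, and had the lowest score of the basal list (1.96), and its nearest LIF summit was 1565 kb away.

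The 3 gained loci outside repeats were all near the bottom of the peroxide list. That in an intron of *Ifit1bl1*, of a family of interferon-induced genes, ranked 436 of 450 (score 3.87). That nearest to the lincRNA gene Gm29904, 41.2 kb from its start site, shared the lowest score of the list (2.40, rank 447), and that in an intron, nearest to the pseudogene Gm18342, ranked 414 (score 5.46). None of these 3 windows held a SIE with up to 1 mismatch, and none had a LIF summit within 200 bp. In the Stat3-C3S lists no summit lay within 200 bp of any of the 7 loci. With a limit of 25% masked bases the gained loci outside repeats were 1 and the lost loci still 3.

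The gene lists searched were those for Stat3 targets, the peroxide response and hypoxia. In the basal list 3 of 25 Stat3 targets and feedback genes had a summit within 50 kb of a start site, namely *Stat3*, *Junb* and *Osmr*, and in the peroxide list 1 of 25, *Stat3*. Of all 55413 annotated genes, 0.675% had such a summit in the basal list and 1.37% in the peroxide list. Of 22 genes of the peroxide and antioxidant response, 1 had a basal summit within 50 kb, *Prdx2*, which encodes a peroxiredoxin, and 0 had a peroxide summit. *Prdx2* was counted through the summit at *Junb*, its neighbour, 5.12 kb from a *Prdx2* start site. Of 13 hypoxia genes 0 had a summit within 50 kb in either list (the symbol Ca9 was not in the annotation). In the LIF list the corresponding counts were 21 of 25, 9 of 22 and 1 of 13, with 5.54% of all genes. The study states more reads for the LIF libraries than for the others, and the part of depth in these counts was not tested.

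The element was defined from the highest-ranked shared locus with both reading frames intact within 8 kb, at 36543205 on chromosome 14, which ranked 9 in the basal and 12 in the peroxide list. On the minus strand there, an open reading frame of 1116 bp (36544018 to 36545133) was followed after 40 bp by one of 3846 bp (36540132 to 36543977). This order of a shorter and a long frame is that of ORF1 and ORF2 of LINE-1. No repeat annotation was used, so that the element is called LINE-1-like here. The 161-bp window of 546 of the 573 loci matched this copy or its flanks over at least 60% of its length (95.3%, 93.2 to 96.9%). The share was 95.3% (89.4 to 98.5%) of shared, 96.2% (93.6 to 98.0%) of gained and 92.7% (86.6 to 96.6%) of lost loci. Of 5730 control windows 10 to 100 kb away, 19.5% matched, and of the 1088 windows of the LIF list 1 did.

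The copies under the summits were close to the model copy in sequence. The model copy was itself taken from the shared loci, and no copy from a control window was tried as the model. At least 95% identity was found for 471 of the 546 matched windows (86.3%, 83.1 to 89.0%), against 295 of the 1119 matched control windows (26.4%, 23.8 to 29.0%). The median identity was 97.5% in each of the 3 classes and 90.1% in the control windows. A copy with both frames intact lay within 8 kb of 25 of 107 shared (23.4%), 67 of 343 gained (19.5%) and 23 of 123 lost loci (18.7%), and of 3, 8 and 2 of as many control windows, 1 for each locus.

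Most matched windows fell in ORF2, where 82 of 102 shared (80.4%, 71.4 to 87.6%), 228 of 330 gained (69.1%, 63.8 to 74.0%) and 75 of 114 lost windows (65.8%, 56.3 to 74.4%) were placed. In ORF1 there were 5 shared (4.90%, 1.61 to 11.1%), 36 gained (10.9%, 7.76 to 14.8%) and 20 lost windows (17.5%, 11.1 to 25.8%). Matched control windows were in ORF2 in 60.1% and in ORF1 in 11.7% of cases. The ORF1 intervals of shared and lost windows just met, and the difference was not tested. The median position was 3423 bp from the first base of ORF1 for shared, 3344.5 bp for gained and 3223 bp for lost windows, with ranges of -431 to 5465, -564 to 5480 and -198 to 5505 bp.

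**Figure D1:**
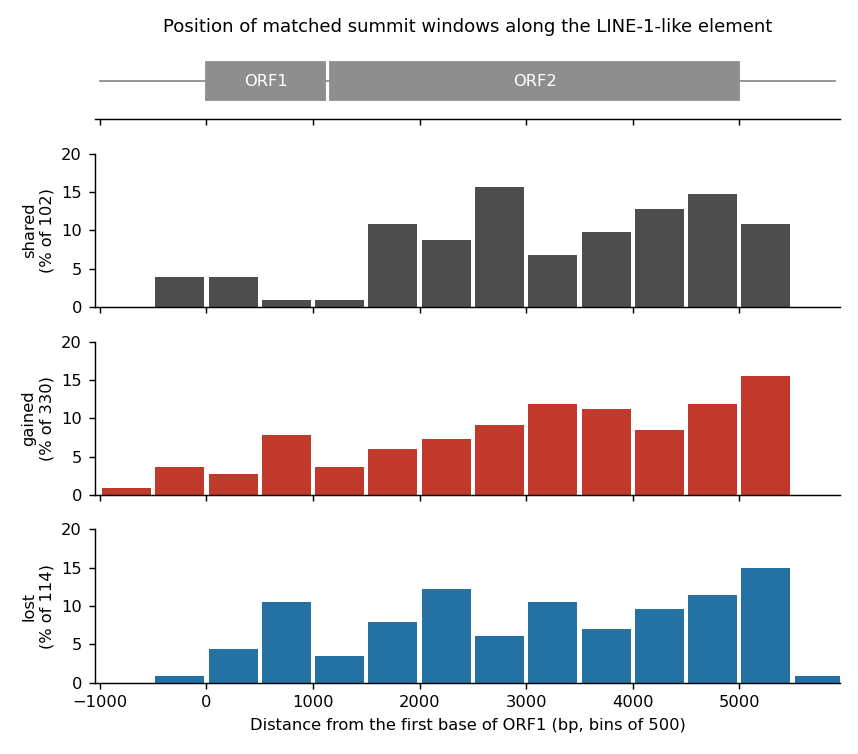
Share of matched windows (y axis, percent of 102 shared, 330 gained and 114 lost windows) by distance from the first base of ORF1 (x axis, bp, bins of 500), with ORF1 and ORF2 of the model copy drawn to scale above. All 3 classes spread over ORF1, ORF2 and the 3′ side of ORF2, with most windows in ORF2 and few upstream of ORF1.

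Gained loci were close in sequence to loci already in the basal list. Of the 343 gained windows, 321 matched a basal window at 90% identity or more over at least 60% of their length (93.6%, 90.4 to 95.9%), against 349 of 3430 control windows (10.2%, 9.18 to 11.2%; 2-sided Fisher's exact test, adjusted p = 1.37e-241). In the other direction, 115 of the 123 lost windows matched a peroxide window (93.5%, 87.6 to 97.2%), against 147 of 1230 control windows (12.0%, 10.2 to 13.9%; Fisher's exact test, adjusted p = 3.33e-81). The windows are copies of one another and not independent sequences, which makes these p-values too small. The element was matched by 96.2% of gained and 92.7% of lost windows, against 19.4% and 18.8% of their control windows. Control windows were not chosen to hold the repeat, so these tests restate that both lists hold copies of it.

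The windows had many near-identical copies in the genome. A median of 12498 other places in the genome were at least 95% identical to the window of a shared locus, 12844 for a gained and 12309 for a lost locus, and the median was 0 in control windows of each class. An exact copy of the whole window was found elsewhere for 9 of 107 shared (8.41%), 42 of 343 gained (12.2%) and 13 of 123 lost loci (10.6%), and for 10 of 107, 32 of 343 and 7 of 123 control windows. Most windows thus had at least 1 base that set them apart from every other copy. The study's text speaks of unique reads without saying whether this means a single position or the removal of duplicates, and the part that reads with several positions had in the lists was not tested.

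The 9 highest-scoring basal loci were all in the peroxide list, and 5 of them were in its highest 10. The locus in an intron of Gm28905 on chromosome 10 had the highest score of both lists (92.7 basal, 112.7 peroxide), with the summit at the same base, 9987379. Next among shared loci by mean percentile was that 35.0 kb from *Rab28*, a gene for a small GTPase, which ranked 3 in both lists (scores 49.0 and 62.6). That nearest to *Zkscan2*, a zinc-finger gene at a distance of 126 kb, ranked 2 in the basal and 7 in the peroxide list (scores 64.7 and 47.9). The loci nearest to Gm47756 and Gm2021 ranked 4 and 9, and 6 and 6. Summits of shared loci lay a median of 8 bp apart, with a range from 0 to 125 bp, and the closest summits not counted as shared were 0.975 kb apart.

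The ranks of the 107 shared loci in both lists were related, with a Spearman rho of 0.668 across loci, which share libraries and sequence and are not independent. The percentile was higher in the peroxide list for 62 loci and lower for 44, and it moved by a median of 12.3 points in either direction. A move of more than 25 points was seen in 26 loci. The largest move up was that of a locus 31.5 kb from the pseudogene Gm12016 (rank 179 of 230 basal, rank 65 of 450 peroxide, a change of 63.2 points), followed by one 3.52 kb upstream of Gm47517 (rank 164 to rank 43, 61.5 points). Loci near the vomeronasal receptor gene *Vmn2r104*, in an intron and nearest to Gm11853, and near Gm28262 moved up by 49.5, 48.8 and 46.4 points. The largest move down was that of a locus near the olfactory receptor gene *Olfr357* (rank 49 to rank 359, a change of -58.7 points), followed by loci near Gm16561, Gm22545, *Ankrd42* and Gm11406 (-56.7 to -42.6 points). All of these 10 loci matched the element, 8 of them in ORF2.

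**Figure D2:**
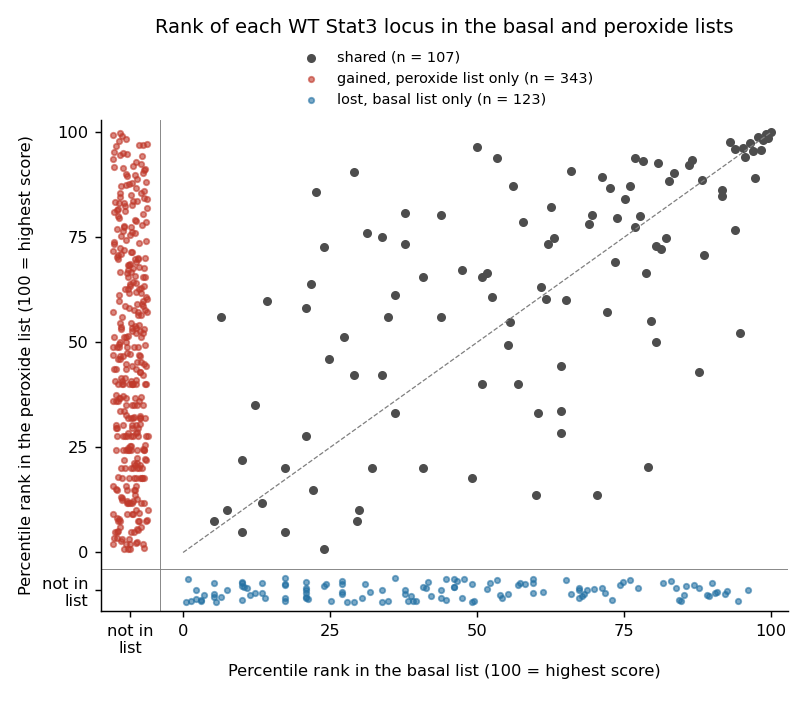
Percentile rank of each locus in the basal list (x axis) and in the peroxide list (y axis), where 100 is the highest score, with 107 shared loci as grey points and the dashed line at equal rank. The 343 gained and 123 lost loci are in strips at the left and below, spread sideways for display, and reach percentiles of 99.8 and 96.1.

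Loci with higher scores were shared more often. At or above the median score of the peroxide list 75 of 225 summits were shared (33.3%, 27.2 to 39.9%), against 32 of 225 below it (14.2%, 9.94 to 19.5%; 2-sided Fisher's exact test, adjusted p = 6.57e-06). In the basal list the numbers were 68 of 115 (59.1%, 49.6 to 68.2%) and 39 of 115 (33.9%, 25.3 to 43.3%; Fisher's exact test, adjusted p = 0.000333). Score and sharing were both taken from the lists that define the classes, and most loci are copies of the same repeat and not independent. These tests therefore describe the lists only, and their p-values are too small. With each list cut into 4 groups of equal size by score, the share in the basal list was 65.5%, 52.6%, 36.2% and 31.6% from the highest to the lowest scores, and in the peroxide list 39.8%, 26.8%, 13.3% and 15.2%. When only the summits at or above the median score of each list were used, 56 loci were shared, 169 gained and 59 lost.

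**Figure D3:**
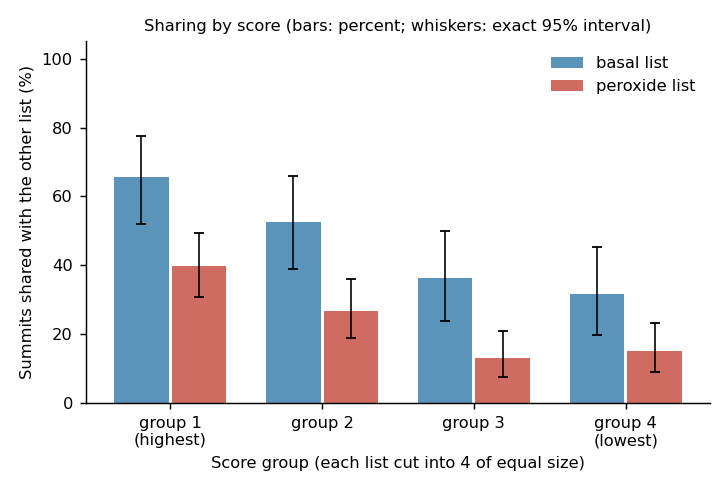
Percent of summits with a partner in the other list (y axis) by score group (x axis, 4 groups of equal size from the highest to the lowest scores), for the basal list (230 summits, blue) and the peroxide list (450 summits, red), with exact 95% intervals as whiskers. The share is highest in the highest-scoring group of both lists, 65.5% and 39.8%.

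Gained loci were not all low in score. They held 5 of the 10 highest ranks of the peroxide list, and their median percentile was 44.9, against 69.1 for shared loci. The highest was at 18738639 on chromosome 5, 75.6 kb from the pseudogene Gm17889 (score 67.4, rank 2), followed by loci near Gm27034 (score 59.2, rank 4), in Mug-ps1 (58.7, rank 5), near Gm7931 (44.3, rank 8) and near the T-cell receptor segment *Trav3-1* (40.9, rank 10). All 5 lay in ORF2 of the element at 98.1 to 99.4% identity. Lost loci had a median basal percentile of 41.7, against 62.2 for shared loci. The highest lost locus was 2.86 kb upstream of *Lipi*, a lipase gene, on chromosome 16 (score 26.9, rank 10), followed by loci near B430218F22Rik (24.7, rank 14), Gm22480 (23.6, rank 18), Gm45492 (23.4, rank 19) and Gm18715 (22.2, rank 22). Those near *Lipi* and B430218F22Rik lay at the same place of the element, 4989 and 4988 bp from the start of ORF1, and their windows were 98.8% identical.

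Differences between the classes in the share of intergenic loci did not pass the test. Intergenic sequence held 72 of 107 shared (67.3%, 57.5 to 76.0%), 242 of 343 gained (70.6%, 65.4 to 75.3%) and 89 of 123 lost loci (72.4%, 63.6 to 80.04%). Their control windows were intergenic in 59.9%, 63.8% and 71.1% of cases. The differences between classes were 3.26 points for gained against shared, 5.07 for lost against shared and -1.80 for gained against lost (2-sided Fisher's exact tests, adjusted p = 0.653, 0.653 and 0.73). Introns held 26.2%, 23.3% and 18.7% of the loci, against 26.9%, 23.5% and 16.4% of their control windows, which was not tested. The median distance to a start site was 24.5 kb for shared, 28.7 kb for gained and 32.9 kb for lost loci. Of matched windows in introns of genes of 1 strand, the element was antisense to the gene in 12 of 25 shared, 47 of 73 gained and 15 of 19 lost loci, or 74 of 117 in all (63.2%, 53.8 to 72.0%), and in 100 of 160 control windows (62.5%, 54.5 to 70.02%).

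Promoters, defined as 5 kb upstream to 0.5 kb downstream of a start site, held 6 shared (5.61%, 2.09 to 11.8%), 20 gained (5.83%, 3.60 to 8.86%) and 11 lost loci (8.94%, 4.55 to 15.4%), against 11.1%, 10.3% and 10.5% of their control windows. Of the 37 promoter loci 34 matched the element, and the 3 others were *Stat3*, *Junb* and *Osmr*. The 20 gained promoter loci all matched it. Protein-coding genes among them were *Glrx2*, a mitochondrial glutaredoxin (4.61 kb upstream, rank 82), *Anapc10*, a subunit of the anaphase-promoting complex (3.18 kb, rank 88), *Fmn2*, an actin-nucleating formin (3.49 kb, rank 121), *Abca5*, a lipid transporter (3.41 kb, rank 214), *Zfp112*, a zinc-finger gene (0.667 kb, rank 266), *Olfr320*, an olfactory receptor (4.52 kb, rank 284), Gm17631 (1.83 kb, rank 299) and *Nuf2*, of the kinetochore (4.51 kb, rank 307). The window upstream of *Glrx2* had 15633 near-identical copies elsewhere, and a summit of the C3S basal list lay 18 bp from it. Among the lost promoter loci, protein-coding genes in repeats were *Lipi* and the olfactory receptor *Olfr346* (4.25 kb, basal rank 214), and among the shared loci *Trpc5os* (4.12 kb, ranks 114 and 271). The other promoter loci were at pseudogenes, noncoding RNAs, unclassified transcripts or immunoglobulin segments.

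Exact SIEs were rare at the summits. One was found in 0 of 107 shared, 0 of 343 gained and 1 of 123 lost windows, the 1 being that at *Junb*, and in 0.748%, 0.262% and 0.407% of their control windows. An approximate upper limit for a count of 0, taken as 3 loci of the total, is 2.80% of shared and 0.875% of gained loci. The exact 95% intervals reach 3.39% and 1.07%. Within 200 bp of the summit, 1 shared, 4 gained and 1 lost locus held an exact SIE (0.935%, 1.17% and 0.813%). With up to 1 mismatch the shares within 80 bp were 5.61%, 6.41% and 7.32%, against 9.35%, 7.70% and 7.07% in control windows, and they moved with the width searched, to 1.87%, 3.79% and 5.69% within 40 bp and 14.0%, 20.1% and 13.8% within 200 bp. No control windows were searched at these other widths. The AP-1 motif, TGANTCA, was in 2.80%, 3.21% and 4.88% of windows (4.21%, 4.93% and 4.31% of control windows), and the core of the hypoxia response element, ACGTG or GCGTG, in 10.3%, 8.16% and 12.2% (7.29%, 7.29% and 7.07%). The NRF2 site was in 0 windows of each class. None of these shares was tested, and for the 4 searches with matches each control share lay within the 95% interval of its class. The control windows matched the element in only 19.5% of cases, against 95.3% of the loci. The loci are mostly copies of 1 repeat and not independent, so this comparison cannot show whether a motif is enriched or depleted.

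Shared loci were found more often in MEFs with Stat3-C3S, a mutant with cysteines of its DNA-binding domain replaced, which the study calls redox-insensitive. A summit of a C3S list (145 summits basal, 223 after peroxide) lay within 200 bp of 50 of 107 shared loci (46.7%, 37.0 to 56.6%), 61 of 343 gained (17.8%, 13.9 to 22.2%) and 25 of 123 lost loci (20.3%, 13.6 to 28.5%). The difference from shared loci was -28.9 points for gained and -26.4 points for lost loci (2-sided Fisher's exact tests, adjusted p = 2.37e-08 and 4.52e-05). Between gained and lost loci it was -2.54 points (Fisher's exact test, adjusted p = 0.653). Shared loci also ranked higher, with a median percentile of 69.1 against 44.9 for gained loci in the peroxide list. In the basal list it was 62.2 against 41.7 for lost loci. The part of rank in these differences was not tested, and most loci are copies of the same repeat and not independent. Of the gained loci, 43 were in the C3S peroxide list (12.5%, 9.22 to 16.5%) and 30 in the C3S basal list (8.75%, 5.98 to 12.3%), and of the lost loci 15 (12.2%) and 14 (11.4%). The study describes its own peroxide-only peaks as present in peroxide-treated C3S cells too, by aligned read peaks and not by summits within 200 bp. In the LIF list 1 shared, 1 gained and 2 lost loci were found.

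**Figure D4:**
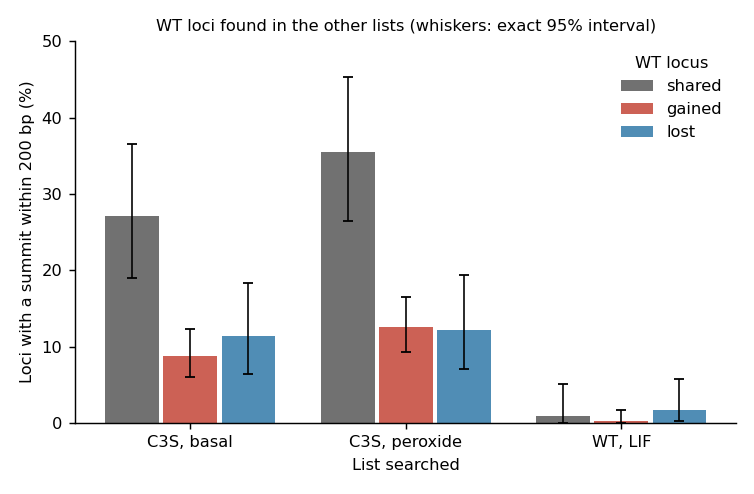
Percent of shared (grey), gained (red) and lost (blue) loci with a summit within 200 bp (y axis) in the C3S basal, C3S peroxide and LIF lists (x axis), with exact 95% intervals as whiskers. Shared loci stand at 27.1% and 35.5% in the C3S lists, gained and lost loci between 8.75% and 12.5%, and all classes below 2% in the LIF list.

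The loci were spread over all chromosomes. The peroxide list held 1.96 times as many summits as the basal list, and more on every chromosome except 19, with 8 basal and 7 peroxide summits. Chromosome X had the highest density in both lists, with 14.0 basal and 22.8 peroxide summits per 100 Mb, and chromosome Y the lowest, with 4.36 and 5.45. Chromosome 6, with 8 basal and 30 peroxide summits, had the largest ratio (3.75). The X chromosome held 10 shared, 29 gained and 14 lost loci. Gained loci were the largest class on every chromosome except 19, where lost loci were (3 shared, 4 gained and 5 lost).

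**Figure D5:**
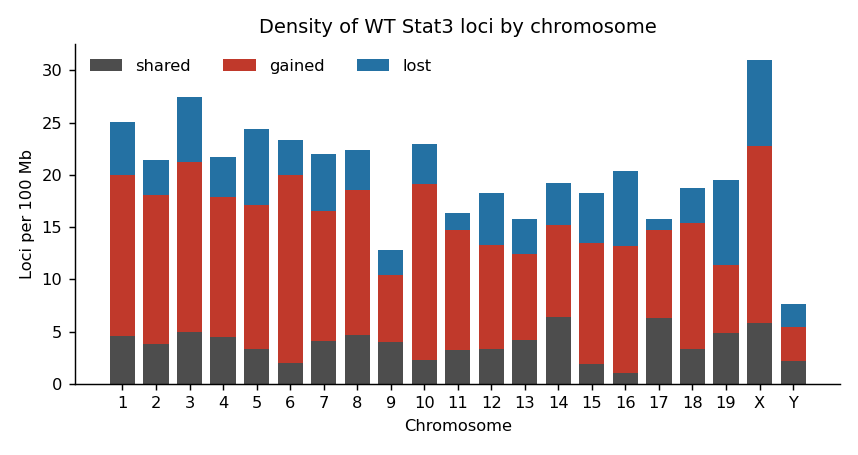
Loci per 100 Mb (y axis) by chromosome (x axis), stacked as shared (grey), gained (red) and lost (blue) loci. The X chromosome has the tallest column and Y the lowest, and gained loci make up the largest part on all but chromosome 19.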

How the data were processed

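The authors deposited 1 list of summits per condition, made from both ChIP replicates, with a score for each summit whose scale (p or q) is not stated. The submitters' processing notes name HISAT2, Picard, MACS2 and mm10, without versions. The study retained peaks above IgG controls. Input and IgG libraries were not analysed here, and the lists hold no values by which the cell type could be checked.

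Summits were paired one-to-one within 200 bp and annotated with GENCODE M21 in the order promoter, exon, intron, intergenic. Windows reached 80 bp to each side. Each summit had 10 control windows, centred at a distance of 10 to 100 kb and kept 1 kb clear of all summits. Repeat-masked bases are those in lower case in GRCm38.p6. Windows were compared with BLAST 2.17.0 (element: at least 70% identity over 60% of the window). The 10 Fisher's exact tests (SciPy 1.17.1, 2-sided) form 1 Benjamini-Hochberg family. Overlap and reading-frame steps were tested on simulated data. Named were the 5 leading loci of each class, the 5 largest moves up and down in rank, loci under 50% masked, promoter loci and members of the gene lists with a summit within 50 kb. For the printed sequences and the element, choices were made after the data were seen. Members and lists were chosen with earlier results of these data known. Motifs were searched within 80 bp of each summit, and within 40 and 200 bp as alternatives.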

Additional observations from a re-analysis of the deposited data

How the results depend on the processing

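No paired analysis was possible because each list pools both replicates, and no replicate could be left out. Using only summits at or above the median score of each list gave 56 shared, 169 gained and 59 lost loci, since fewer summits entered. Of the differences that did not pass the test, 2 changed sign: gained against shared loci in intergenic sequence with protein-coding genes only (-0.371 points, Fisher's exact test, adjusted p = 1), and gained against lost loci in the C3S peroxide list alone (0.341 points, Fisher's exact test, adjusted p = 1), and the cause was not tested. The other 31 of 33 alternatives of the Fisher's exact tests kept direction and side of the threshold, and the counts of loci at 50, 100, 500 and 1000 bp, with merged summits and on chromosomes 1 to 19, X and Y stayed within 1.5 times. Some of these alternatives belong to the score and sequence-similarity tests. They carry the limits given above for those tests, so their stability adds no support. The lists hold no read depth, so that the depth at which a locus would be missed in either list cannot be given. Motif shares were also taken within 40 and 200 bp of the summit, and moved with the width.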
